A study of Mus musculus with 10 samples.

Results

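The class I molecules and the genes that load them with peptide were taken as 9 genes: B2m, H2-K1, H2-D1, Tapbp, Calr, Canx, Pdia3, Erap1 and Sec22b. Their members were the accessible regions of the deposited peak lists that overlapped any of these genes (GENCODE M21 models on the mm10 mouse genome) extended by 5 kb on either side. Across the 5 lists, 174 of 748625 deposited regions lay in these windows. Where strong regions (q-value of at most 0.01) of the lists overlapped, they were merged, which gave 43 of 204075 merged regions. Of these 43, 26 were called in all 5 lists and 6 in a single list.

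The lists came from an assay for transposase-accessible chromatin (ATAC-seq), in which a transposase inserts sequencing adapters into open DNA. The cells were Myc-CaP, a prostate cancer line from a Myc transgenic male FVB/NJ mouse, and every group was grown for 48 h. Ctrl received no agent. Oxali received 2 μM oxaliplatin, a platinum drug that crosslinks DNA, and Cispl received 2 μM cisplatin, a related platinum drug. The IFNγ group received interferon gamma, labelled as 1000 pg with no volume and given as 1 ng/ml in the study's methods. Oxali + IFNγ, called the combination here, received both agents at the same doses. Each group had 2 libraries, which the authors pooled before they called peaks, so each group was 1 list of 1 cell line, no replicate spread could be measured and no test was made. All 4 treated lists were set against the same Ctrl list.

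MHC class I molecules show peptides from inside the cell to CD8+ T cells. A polymorphic heavy chain (here H2-K1 and H2-D1) folds in the endoplasmic reticulum with its light chain β2-microglobulin (B2m), first with help of the membrane chaperone calnexin (Canx). Calreticulin (Calr), the thiol oxidoreductase ERp57 (Pdia3) and tapasin (Tapbp) then hold the empty molecule at the peptide transporter until a peptide binds tightly, the aminopeptidase Erap1 trims peptides to the length that the groove takes, and the vesicle fusion protein Sec22b takes part in cross-presentation.

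The start sites of 6 members held the motifs tied to this family among those searched, and the bases before these starts are shown because the start-site regions carried most of the signal described here. Windows ran from 250 bases before to 50 bases after the start, both strands were searched, and sequences are from RefSeq on GRCm38.p6 (the mm10 build). Capitals mark the NF-κB consensus in the heavy chain genes, the core of the interferon-stimulated response element (ISRE, GAAANNGAA) in B2m and Erap1, and the ER stress element (CCAAT, 9 bases, CCACG) in Calr and Canx. For H2-D1 and Erap1 a stretch of 30 bases is shown, since GENCODE places the bases before the RefSeq start within a transcribed leader.
H2-K1, chr17:34000348-34000597, minus strand: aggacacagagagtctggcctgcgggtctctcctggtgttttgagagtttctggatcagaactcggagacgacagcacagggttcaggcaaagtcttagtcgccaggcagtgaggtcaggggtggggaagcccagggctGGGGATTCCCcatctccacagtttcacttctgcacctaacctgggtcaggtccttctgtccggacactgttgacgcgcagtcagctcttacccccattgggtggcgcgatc
H2-D1, chr17:35262913-35262942, plus strand: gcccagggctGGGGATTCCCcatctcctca
B2m, chr2:122147437-122147686, plus strand: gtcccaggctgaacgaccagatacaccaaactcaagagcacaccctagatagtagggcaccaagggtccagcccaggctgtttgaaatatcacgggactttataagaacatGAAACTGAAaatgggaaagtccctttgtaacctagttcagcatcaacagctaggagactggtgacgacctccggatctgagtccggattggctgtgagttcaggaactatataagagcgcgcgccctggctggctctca
Calr, chr8:84846932-84847181, minus strand: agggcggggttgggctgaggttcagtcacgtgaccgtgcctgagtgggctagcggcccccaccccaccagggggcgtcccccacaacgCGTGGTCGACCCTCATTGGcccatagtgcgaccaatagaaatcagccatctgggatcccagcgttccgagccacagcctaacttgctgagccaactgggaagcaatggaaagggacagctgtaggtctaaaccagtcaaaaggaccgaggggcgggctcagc
Canx, chr11:50325674-50325923, minus strand: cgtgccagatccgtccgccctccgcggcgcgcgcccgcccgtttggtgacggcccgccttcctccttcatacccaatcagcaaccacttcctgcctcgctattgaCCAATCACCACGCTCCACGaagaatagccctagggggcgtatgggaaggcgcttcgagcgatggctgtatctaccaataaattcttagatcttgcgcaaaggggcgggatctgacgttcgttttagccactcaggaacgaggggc
Erap1, chr13:74639823-74639852, plus strand: cacgtgccctgccggtccaccTTCACTTTC

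The heavy chain genes shared the same NF-κB letters, and the 30 bases around them differed at 1 base between H2-K1 and H2-D1. The consensus stood 111 to 102 bases before the start of H2-K1 and 171 to 162 bases before that of H2-D1, and 10.7% of the 21263 windows of protein-coding genes held it. The ISRE core stood 139 to 131 bases before the start of B2m and within the last 9 bases before that of Erap1, on the opposite strand and overlapped by a further match across the start, and 8.15% of all windows held it. The ER stress element was in 30 of the 21263 windows (0.141%), and the windows of Calr and Canx, both chaperones of the endoplasmic reticulum, were 2 of these 30. It stood 162 to 144 bases before the start of Calr, on the opposite strand, and 145 to 127 bases before that of Canx.

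The other motifs divided the members less sharply. A CCAAT box was present in 8 of the 9 members, Erap1 being the exception, against 38.2% of all windows; part of these matches lies inside the ER stress elements. A GC box (GGGCGG) was present in 6 members, Tapbp, Calr, Canx, Pdia3, Erap1 and Sec22b, against 46.2% of windows, and in none of B2m, H2-K1 and H2-D1. A TATA box (TATAAA) was found in B2m, H2-K1, H2-D1 and Calr (12.6% of windows), an E box (CACGTG) in Calr and Erap1 (7.84%), and the cAMP response core (TGACGT) in Canx (8.49%). No member window held the GAS element (TTCNNNGAA), which 7.69% of windows held. A match describes letters and no more, and the absence of a match says only that those letters were not in the window.

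The level of a region is the number of read ends piled up at its highest summit, recovered from the deposited fold and p-value, divided by the genome background of the list, so that a level of 1 is the background. This background, which scales with depth, was 9.62 under IFNγ (79.3% of Ctrl) and 13.8 in Cispl (113% of Ctrl), the lowest and the highest. Intervals are exact Poisson intervals for levels and exact conditional binomial intervals for ratios, both at 95% and both for counting error only: both ends of a fragment can be counted, the summit is a maximum, and the spread between libraries is not in them. Scaled in this way, the class of start-site regions as a whole stood lower after each treatment: over the 13973 start-site regions called in all 5 lists, the median log2 ratio to Ctrl was -0.38 with Oxali, -0.56 with Cispl, -0.50 under IFNγ and -0.74 with the combination, while over all 85384 regions called in all 5 lists it was 0.15, 0.07, -0.25 and 0.14. Changes at start sites are therefore given beside the start-site median. A lower signal over background of a whole library and a change at the start sites themselves cannot be told apart from pooled lists, which bears on every start-site ratio given here. In bulk chromatin, a region open in fewer cells and one less open in each cell cannot be told apart. Of the prostate epithelial markers, Krt8 and Hoxb13 had a start-site region in every list, Krt18 had a faint one in Ctrl and Oxali, Epcam had a faint one under IFNγ only, and Cdh1 had none in any list. The immune markers Ptprc, Cd3e and Itgam had none in any list, and of the endothelial and fibroblast markers Pdgfra had one in every list, Pecam1 a faint one in Ctrl, Cispl and the combination, and Cdh5 and Pdgfrb none.

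The number of regions around the class I genes differed between lists along with the number called in the whole genome. All strong regions numbered 118154 in Ctrl, 153700 in Oxali, 171785 in Cispl, 113014 under IFNγ and 169143 in the combination. The windows of the class I genes held 31 strong regions in Ctrl, 35 in Oxali, 40 in Cispl, 30 under IFNγ and 36 in the combination. They covered 22766 bases in Ctrl, 25686 in Oxali, 29225 in Cispl, 23050 under IFNγ and 26613 in the combination. B2m differed most between lists, with 2 strong regions in Ctrl, 4 in Oxali, 6 in Cispl, 3 under IFNγ and 4 in the combination. Tapbp and Pdia3 reached the highest number, 7, Tapbp under IFNγ and Pdia3 in Cispl.

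**Figure D1:**
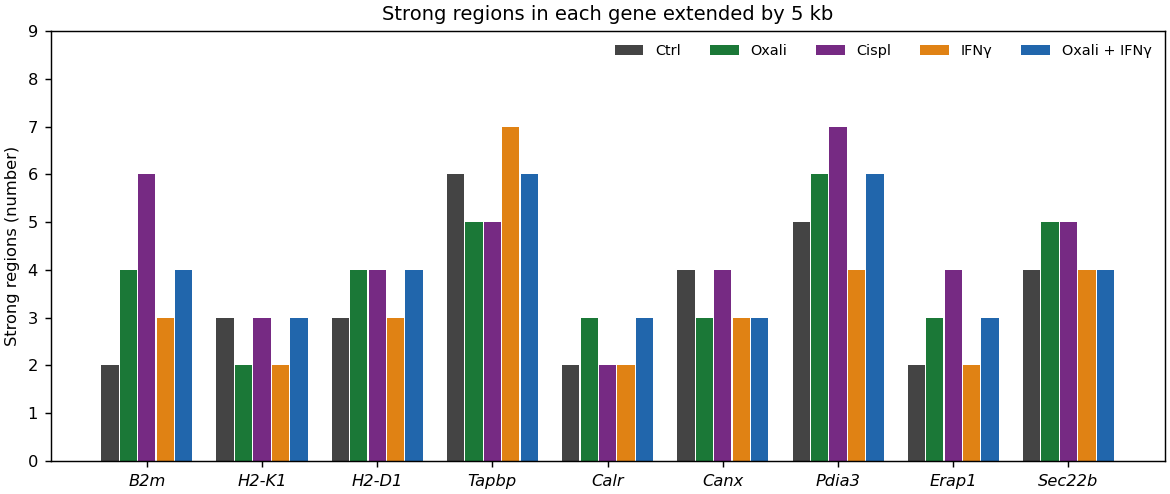
Number of strong regions (vertical axis) in the window of each gene (horizontal axis), 1 bar per list. B2m goes from 2 in Ctrl to 6 in Cispl, and Tapbp has 6 in Ctrl, 5 with either platinum drug and 7 under IFNγ.

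Gained regions were a smaller share of the members than of all strong regions in the 3 lists with a platinum drug, and near the genome-wide share under IFNγ. Gained regions, strong in a treated list with no deposited Ctrl region overlapping, numbered 6 of 35 in Oxali (32.5% of all strong Oxali regions were gained), 9 of 40 in Cispl (37.3% of all), 3 of 30 under IFNγ (12.9%) and 6 of 36 in the combination (38.4%). Lost regions, strong in Ctrl with no treated region overlapping, numbered 2 of 31 with Oxali (9.11% of all strong Ctrl regions), 1 with Cispl (5.9%), 4 under IFNγ (15.8%) and 1 with the combination (7.59%). A gained and a lost Cispl region lay side by side within 1 merged region of Pdia3, and 1 gained IFNγ region lay within a merged region upstream of Sec22b that Ctrl also had, so that after merging 8 Cispl and 2 IFNγ regions counted as gained and 0 Cispl regions as lost.

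Where a region was called in both lists, the windows of the class I genes leaned to lower levels. With Oxali, of 37 merged regions called in either list, 2 were at least 1.5-fold higher (18.5% of all regions) and 9 at least 1.5-fold lower (4.85% of all regions). With Cispl, 2 of 39 were higher (15.5%) and 9 lower (7.27%). With IFNγ, 0 of 33 were higher (3.18%) and 6 lower (13.8%). With Oxali + IFNγ, 2 of 38 were higher (17.7%) and 16 lower (8.33%). Scaled to the regions called in all 5 lists, 16 were lower with Cispl and 2 under IFNγ, and 1 was higher with Oxali, under IFNγ and with the combination alike. The median log2 ratio of the member regions called in both lists was -0.40 with Oxali, -0.52 with Cispl, -0.40 under IFNγ and -0.68 with the combination, and scaled to the start-site median these became -0.02, 0.03, 0.09 and 0.06.

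Start sites and other regions were also set apart, since 20 of the 43 regions lay within 1 kb of a start of a protein-coding transcript. Of all 204075 merged regions, 19870 did, a smaller share. This difference in make-up bears on the shares of all regions set beside the members above. Of the 9 start-site regions of the members, with Oxali 0 were at least 1.5-fold higher (7.66% of all start-site regions) and 5 lower (26%). With Cispl 0 were higher (6.29%) and 6 lower (47.6%), under IFNγ 0 were higher (0.637%) and 2 lower (37.8%), and with the combination 0 were higher (8.22%) and 6 lower (58.9%). Outside start sites, the median log2 ratio of the member regions was -0.08 with Oxali over 12 regions, -0.11 with Cispl over 14, -0.32 under IFNγ over 9 and -0.13 with the combination over 13, against 0.27, 0.21, -0.18 and 0.28 over all regions outside start sites. At the 9 start sites it was -0.60, -0.69, -0.53 and -0.82, against -0.36, -0.53, -0.49 and -0.71 over all start-site regions.

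In untreated cells the chaperones of the endoplasmic reticulum had the highest start-site levels. Calr led in Ctrl at 227, followed by Pdia3 at 203 and Canx at 180, whose intervals did not overlap. Erap1 at 117 and Tapbp at 113 had overlapping intervals, B2m at 101 and H2-D1 at 86.2 were each apart from their neighbours, and H2-K1 at 70.1 and Sec22b at 61.8 overlapped. Among all start-site regions these Ctrl levels ranged from percentile 42.2 for Sec22b to percentile 97.6 for Calr. In Oxali + IFNγ more neighbours overlapped: Pdia3 at 98.3 and Calr at 92.2 overlapped, as did Canx, Erap1, B2m and Tapbp each with the next, from 75.2 down to 63.9.

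**Figure D2:**
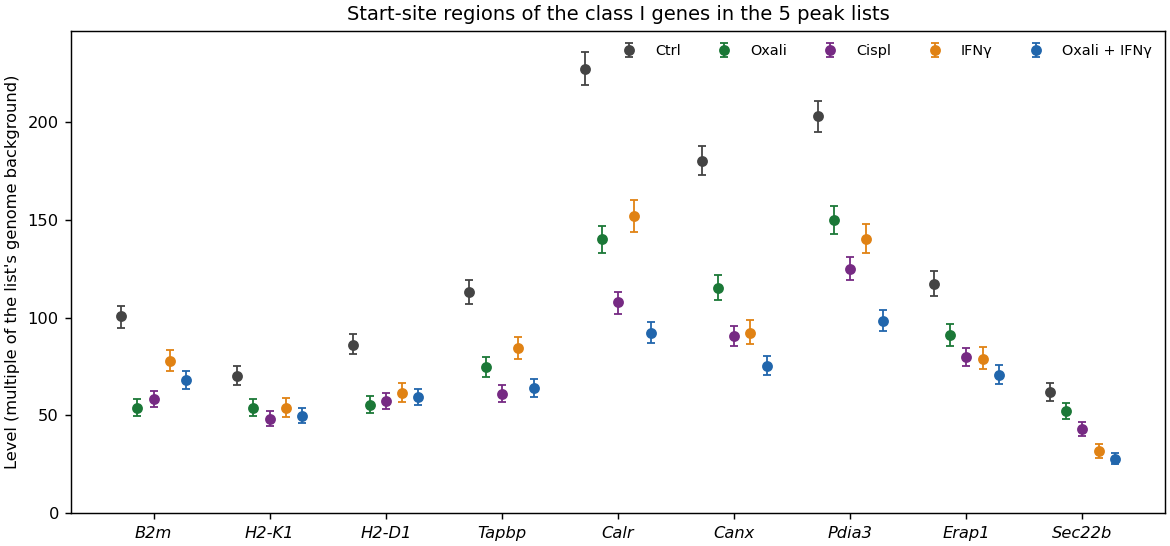
Level of the start-site region of each gene (vertical axis, multiple of the genome background of the list) in the 5 lists, with 95% Poisson intervals (bars). Ctrl is the highest list at all 9 genes, and the 9 genes span 61.8 to 227 in Ctrl and 27.8 to 98.3 in the combination.

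B2m, the light chain that every class I molecule needs, had its start-site region at chr2:122147233-122148430, with the summit 68 bases before the gene's start, in an intron of the neighbouring gene Patl2. Its level was 101 in Ctrl (94.9 to 106), 53.9 in Oxali (49.7 to 58.4), 58.2 in Cispl (54.2 to 62.4), 77.8 under IFNγ (72.4 to 83.6) and 67.9 in the combination (63.5 to 72.5). Both platinum lists were lowest and had overlapping intervals, and the IFNγ-treated lists lay between them and Ctrl. The log2 ratio to Ctrl was -0.90 with Oxali, at percentile 2.64 of all start-site regions, and -0.79 with Cispl, at percentile 24.9. With IFNγ it was -0.37 (percentile 65.5) and with the combination -0.57 (percentile 59.8), both above the start-site median, so that scaling to that median turned these values to 0.13 and 0.18. Averaged over the summits of the region, however, they were -0.97 and -1.0, both past 1.5-fold.

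Of the heavy chains, H2-K1 lay near the start-site median with either platinum drug, and H2-D1 lay at percentile 19.3 of start sites with Oxali. The H2-K1 region (chr17:33999467-34000980, summit 36 bases before the start) had levels of 70.1 in Ctrl (65.5 to 75), 53.8 in Oxali, 48.3 in Cispl, 53.7 under IFNγ and 49.7 in the combination, and the 4 treated intervals overlapped. The H2-D1 region (chr17:35262584-35264242, summit in a UTR 265 bases after the GENCODE start) had levels of 86.2 in Ctrl (81.1 to 91.6), 55.2 in Oxali, 57.3 in Cispl, 61.5 under IFNγ and 59.1 in the combination, again with overlapping treated intervals. At the highest summit each treated list was below Ctrl by more than the counting error at both genes, but averaged over summits H2-K1 under IFNγ was above Ctrl, at a log2 ratio of 0.41. Against the start-site median H2-K1 differed by -0.00 with Oxali, 0.02 with Cispl, 0.11 under IFNγ and 0.25 with the combination on the log2 scale, and H2-D1 by -0.27, -0.03, 0.01 and 0.20.

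The H2 values carry a caution on mapping. Heavy chain genes are highly polymorphic and belong to a family of near copies, the cells carry the FVB/NJ haplotype, and the reference is the C57BL/6J haplotype, whose differences from FVB/NJ the reference cannot show. In the reference itself, 28.4% of the 31-base words of the H2-K1 window and 18.5% of those of the H2-D1 window occurred again elsewhere, and 35.3% and 33.4% within the gene bodies. Within their start-site regions it was 24.9% and 26.3%, against 7.36% for B2m, 1.08% for Pdia3, 0.969% for Sec22b and 0% for Tapbp, Calr, Canx and Erap1. The authors kept reads with confident placement, so reads from such words can be missing or can come from another H2 gene, and the part of this in the levels was not tested. The Erap1 window was also rich in repeated words (25.2%), with none in its start-site region.

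**Figure D3:**
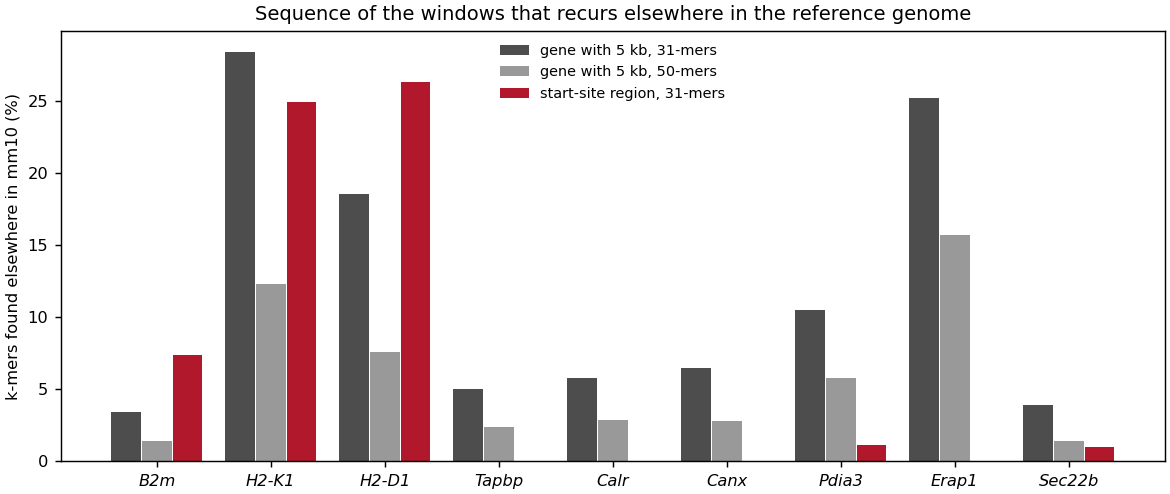
Share of words (vertical axis, %) that occur again elsewhere in mm10, for each gene extended by 5 kb (31 and 50 bases, dark and light bars) and for its start-site region (31 bases, red bars). The start-site regions of H2-K1 and H2-D1 stand at 24.9% and 26.3%, and no other start-site region exceeds 7.36%.

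Tapbp, which bridges the class I molecule and the peptide transporter, had its strongest start-site region at chr17:33915693-33916390, within 1 kb of starts of both Tapbp and Zbtb22. Its level was 113 in Ctrl, 74.6 in Oxali, 61.1 in Cispl, 84.3 under IFNγ and 63.9 in the combination. Another start, the one RefSeq uses, had a region at chr17:33919130-33920063 with levels of 104 in Ctrl, 76.6 in Oxali, 64.2 in Cispl, 72.6 under IFNγ and 58 in the combination. Both starts were at least 1.5-fold lower with Cispl and with the combination, but in the combination they differed from the start-site median by -0.08 and -0.10 on the log2 scale. By the deposited fold over the local background the first start was at -0.35 with Cispl and -0.10 with the combination, neither past 1.5-fold. This fold can shrink a drop at a tall start site, as given for Calr below, and is no separate check. At the first start IFNγ alone stayed nearest to Ctrl, with a ratio of 0.747 (0.684 to 0.815).

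The folding chaperones Calr, Canx and Pdia3 each had their lowest level in the combination. Calr (chr8:84846479-84847706, summit 61 bases before the start) had levels of 227 in Ctrl, 140 in Oxali, 108 in Cispl, 152 under IFNγ and 92.2 in the combination, a combination ratio of 0.405 (0.378 to 0.434). Canx (chr11:50324954-50326346, summit 16 bases before the start) had levels of 180 in Ctrl, 115 in Oxali, 90.5 in Cispl, 92.3 under IFNγ and 75.2 in the combination, a combination ratio of 0.417 (0.387 to 0.45). Both stayed below the start-site median under every treatment, with log2 differences from it of -0.33, -0.52, -0.09 and -0.56 for Calr and of -0.27, -0.43, -0.47 and -0.52 for Canx (Oxali, Cispl, IFNγ, combination). Under IFNγ alone Canx had a ratio of 0.512 (0.473 to 0.554), at percentile 5.93 of start-site regions, and by the deposited fold over the local background a log2 ratio of -0.33, which is not past 1.5-fold. Pdia3 (chr2:121413021-121414621, also within 1 kb of a start of Catsper2) had levels of 203 in Ctrl, 150 in Oxali, 125 in Cispl, 140 under IFNγ and 98.3 in the combination, a combination ratio of 0.485 (0.453 to 0.519) at percentile 28.9. By the deposited fold over the local background, the log2 values of the combination came to -0.35 for Calr, -0.43 for Canx and -0.38 for Pdia3, none of them past 1.5-fold, and averaged over summits Pdia3 was at -0.45. Beside the Calr start the local background was 148 in Ctrl and 116 in Cispl, against genome backgrounds of 12.1 and 13.8. It was thus lower where the start site was lower, so the fold over it can shrink a drop at a tall start site and is no separate check.

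Erap1, the peptide trimmer, was close to the typical start site throughout. Its region at chr13:74638845-74640549 had levels of 117 in Ctrl, 91.1 in Oxali, 79.7 in Cispl, 79 under IFNγ and 70.7 in the combination, and its log2 ratios lay at percentiles 51.2, 50.2, 39.9 and 50.7 of start-site regions. Sec22b differed from it in the lists under IFNγ: its region at chr3:97900578-97901845 had levels of 61.8 in Ctrl, 52.1 in Oxali, 42.9 in Cispl, 31.7 under IFNγ and 27.8 in the combination. The intervals of both IFNγ-treated lists (28.2 to 35.5 and 25 to 30.8) overlapped each other and lay below all others. The IFNγ ratio of 0.513 (0.448 to 0.587) was at percentile 6.07 of start-site regions. At the highest summit the Oxali ratio of 0.843 (0.755 to 0.94) was the nearest to Ctrl of the 9 genes. By the deposited fold over the local background, the Oxali log2 ratio was -0.42, farther from Ctrl than at any other member except B2m. When the summits of a region were averaged in place of the highest, however, the log2 ratio of Sec22b became -0.08 under IFNγ, -0.38 with the combination and 0.58 with Oxali.

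The size of these differences went with the Ctrl level over all start sites, a class comparison chosen after the values were seen. The same Ctrl level sets the class and divides each ratio, so part of this trend can be built in, which was not tested. With Oxali + IFNγ, the median log2 ratio was 0.27 over the 3333 start-site regions of the lowest class of Ctrl level and -1.21 over the 718 of the highest class, which held Calr and Pdia3. Against start sites of their own class of Ctrl level, Calr and Pdia3 were at -0.09 and 0.17 in the combination, and Canx at -0.19. B2m (0.50), Erap1 (0.34), H2-K1 (0.30), H2-D1 (0.25) and Tapbp (0.25) were above their class, and Sec22b (-0.36) was below. With Oxali alone, B2m was at -0.33 and H2-D1 at -0.25 against their class, and Pdia3 at 0.22.

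**Figure D4:**
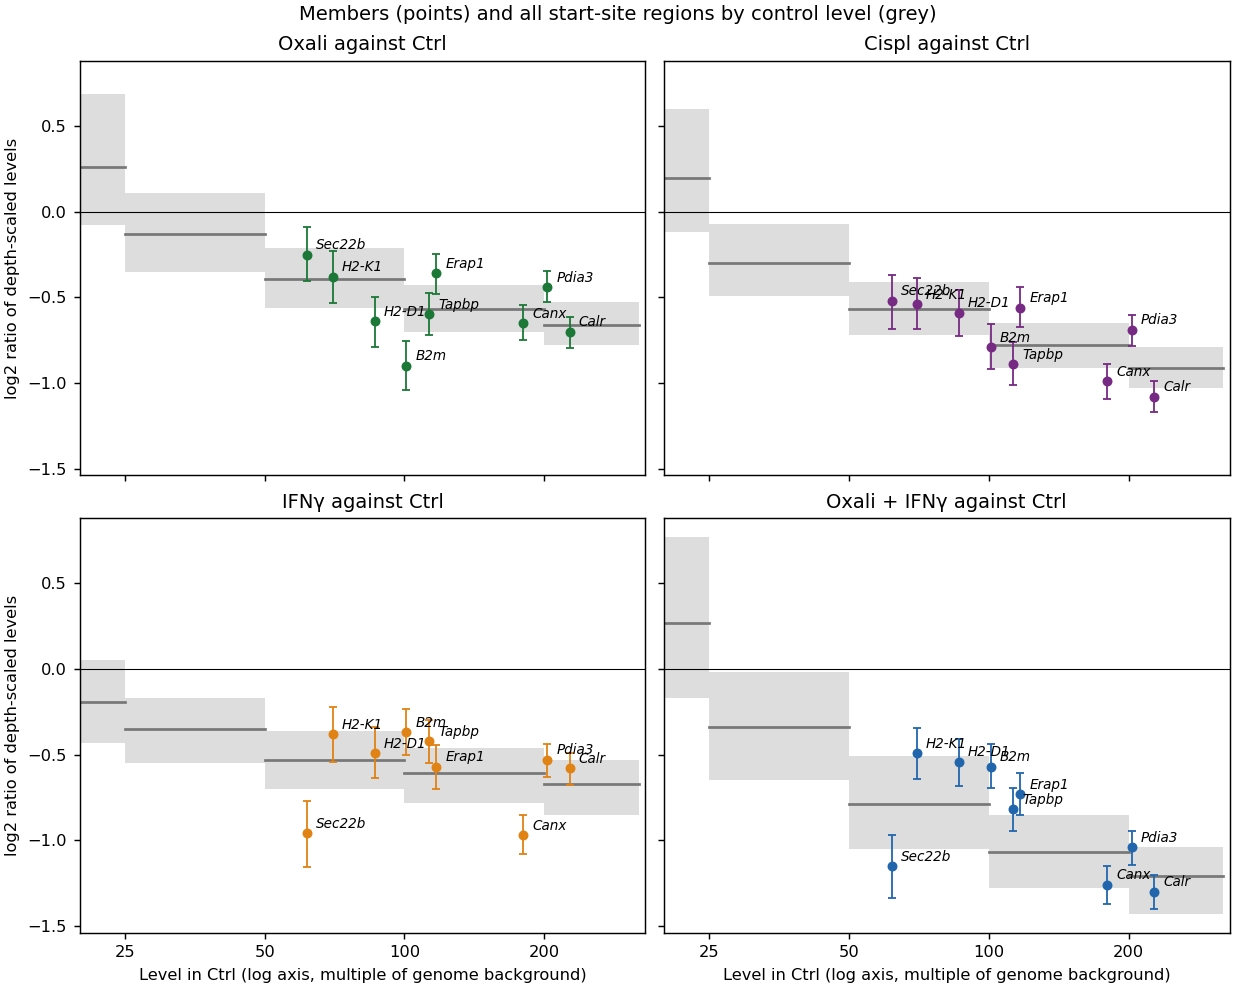
Log2 ratio of depth-scaled levels to Ctrl (vertical axis) against the level in Ctrl (horizontal log axis) for the start-site regions of the 9 genes (points with 95% counting intervals), 1 panel per treatment. Grey lines and boxes give the median and quartiles of all start-site regions by class of Ctrl level. Below the box lie B2m (-0.90) and H2-D1 (-0.64) with Oxali, and Calr (-1.08) and Canx (-0.99) with Cispl. So do Sec22b (-0.96) and Canx (-0.97) under IFNγ, and Sec22b (-1.15) with the combination. Above it lie Pdia3 and Erap1 with either platinum drug and B2m and Tapbp under IFNγ. With the combination B2m, H2-K1, Tapbp and Erap1 lie above it. Pdia3 lies at its upper edge under IFNγ and with the combination.

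Beside the start of B2m, a region in its first intron was called in every treated list and not in Ctrl. It lay at chr2:122148550-122148798, 119 bases past the end of the start-site region, and had levels of 11.2 in Oxali (9.31 to 13.3), 10.3 in Cispl (8.69 to 12.2), 8.94 under IFNγ (7.15 to 11) and 12.2 in the combination (10.3 to 14.2). The 4 intervals overlapped. With the local background of the nearest Ctrl summit, Ctrl would have needed a level of 6.75 for a call, which is below all 4 treated levels. A region before the start, at chr2:122146711-122147179, had overlapping intervals in the 5 lists, from 16.6 in Ctrl to 18.6 in Oxali.

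Downstream of B2m, within introns of Patl2, 3 neighbouring regions marked the Cispl list. The first, at chr2:122155393-122155826, had a level of 9.45 in Cispl (7.89 to 11.2), 2.22 in Oxali (1.44 to 3.27) and 2.79 in the combination (1.95 to 3.86), and no call in Ctrl or IFNγ, where a level of 1.73 would have been called in Ctrl. Cispl was 4.26-fold above Oxali there (2.76 to 6.82). The other 2, named after their values were seen, followed after gaps of 57 and then 399 bases and had Cispl levels of 8.43 and 5.38. Outside Cispl they had 1 call, a weak one of 2.32 in the combination.

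**Figure D5:**
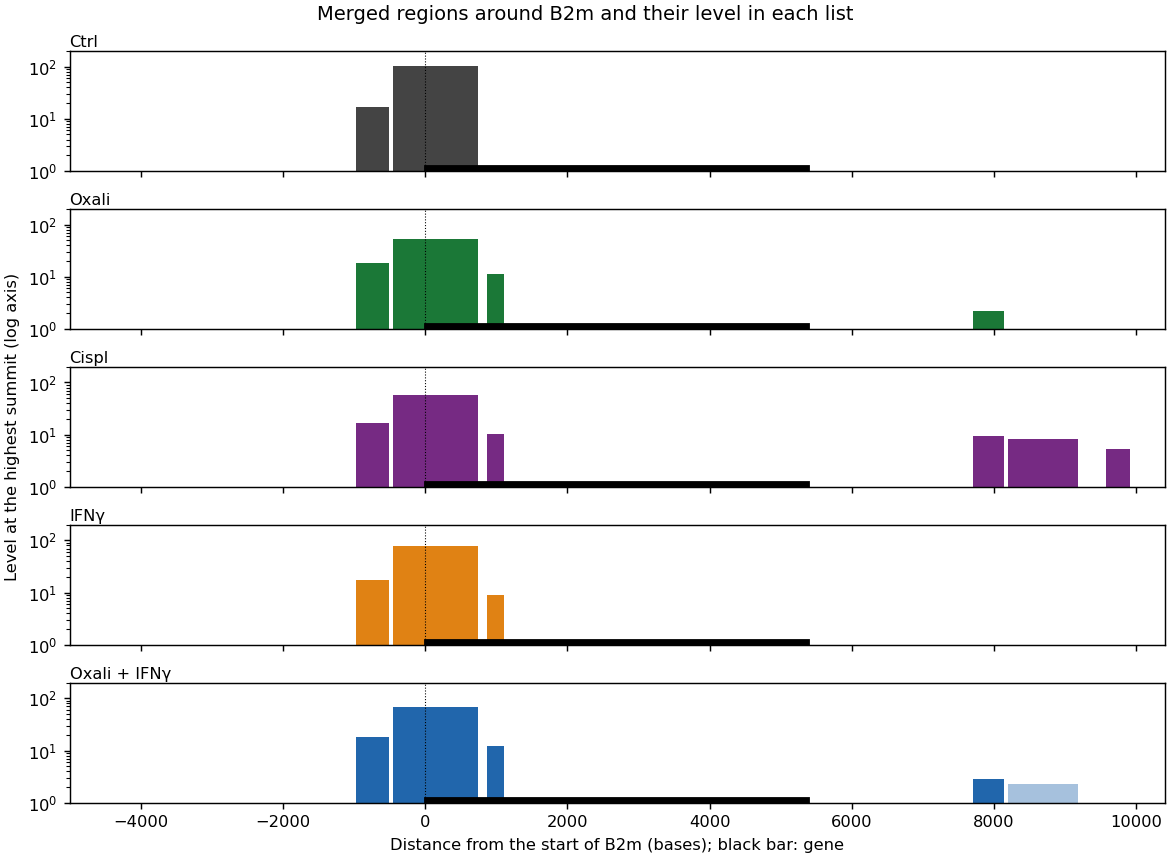
Merged regions around B2m by distance from the gene's start (horizontal axis, bases) and their level (vertical log axis) in each list; the black bar is the gene, and the pale bar a region that is not strong. The intron region next to the start is missing in Ctrl only, and the regions about 8 kb downstream are high in Cispl (9.45 and 8.43) and low or missing elsewhere.

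At the heavy chain genes, a region upstream of H2-D1 was called in the lists with a platinum drug, and a region past H2-K1 was not called in Oxali or IFNγ. The H2-D1 region at chr17:35259152-35259347, 3474 bases upstream of the start, had levels of 13.7 in Oxali (11.6 to 16), 18.7 in Cispl (16.5 to 21.1) and 13.3 in the combination (11.4 to 15.5), and was not called in Ctrl or IFNγ; 1.2% of its 31-base words recurred elsewhere. Ctrl would have needed a level of 9.89 there. The H2-K1 region at chr17:33993626-33993858, past the gene's end, was present in Ctrl (5.52), Cispl (4.72) and Oxali + IFNγ (5.04) and not called in Oxali or IFNγ, where levels of 1.95 and 2.18 would have been called; 67.5% of its words recurred elsewhere. A further region beyond it (chr17:33991669-33992604) had levels of 22.7 in Ctrl, 17.2 in Oxali, 16.1 in Cispl, 18.9 under IFNγ and 13 in the combination.

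At the far end of Erap1, in its 3′ UTR, lay the member region with the largest ratio to Ctrl. This region (chr13:74691844-74692234) had a weak call in Ctrl at 2.06 and levels of 4.7 in Oxali, 8.72 in Cispl and 4.34 in the combination, and was not called under IFNγ. The ratio to Ctrl was 2.28 with Oxali (1.39 to 3.83), 4.23 with Cispl (2.73 to 6.8) and 2.11 with the combination (1.29 to 3.52), from a Ctrl pileup of 25. None of its words recurred elsewhere. An intron region of Erap1 at chr13:74656658-74656900 went the other way with Oxali, at a level of 3.1 against 4.94 in Ctrl, a ratio of 0.628 (0.402 to 0.969), with 62.9% of its words recurring.

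Within Sec22b, an intron region was higher in Cispl, and within Calr a region was called only in the lists with oxaliplatin. The Sec22b intron region at chr3:97907723-97908148 had levels of 3.3 in Ctrl, 4.7 in Oxali, 6.25 in Cispl and 4.03 in the combination, was not called under IFNγ, and stood 1.9-fold above Ctrl in Cispl (1.29 to 2.83). The Calr region at chr8:84845769-84845954, 1077 bases after the start and 524 bases from the start-site region, had levels of 19.4 in Oxali (16.9 to 22.2) and 17.3 in the combination (15.1 to 19.7). It was not called in Ctrl, Cispl or IFNγ. Ctrl would have needed 14.7 for a call, just under the interval of the combination, and Cispl 10.9. The level that IFNγ would have needed was not computed.

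Within Pdia3 and Canx, the changing regions were mostly faint. A Pdia3 intron region at chr2:121426797-121427223 was gained with Oxali (3.55), Cispl (3.05) and Oxali + IFNγ (2.79), with 58.4% of its words recurring. Another at chr2:121436507-121436942 had levels of 3.21 in Ctrl, 3.46 in Oxali, 2.91 in Cispl and 5.19 in the combination, a combination ratio of 1.62 (1.07 to 2.46), and was lost under IFNγ, with 70.7% of its words recurring. A Canx intron region at chr11:50316311-50316494 was present in Ctrl (2.55) and Cispl (2.91) and lost with the other 3 treatments, and 94.8% of its words recurred. A stronger Canx intron region, at chr11:50319281-50319799 with 30.7% of its words recurring, had levels of 18.8 in Ctrl, 10.4 in Oxali, 12.6 in Cispl, 18.3 under IFNγ and 11.3 in the combination, so that IFNγ alone matched Ctrl within its interval and the lists with a platinum drug were lower.

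The remaining regions mostly changed less between lists or stood in a single one. The region 4370 bases upstream of H2-D1 had levels of 64.8 in Ctrl and 41.8 in the combination, at least 1.5-fold lower (0.645, 0.577 to 0.721). The region past the end of H2-D1 lay between 10.3 and 12.9 in the 5 lists with overlapping intervals. In Pdia3, the region 18249 bases after the start lay between 4.68 under IFNγ and 8.99 in the combination, and the one 21280 bases after it between 7.01 in Oxali and 10.1 in Ctrl. Upstream of Sec22b, the region 2896 bases before the start had levels of 7.08 in Ctrl, 10.7 in Oxali, 6.76 in Cispl, 10.4 under IFNγ and 9.61 in the combination. With Oxali it was at least 1.5-fold higher (1.52, 1.14 to 2.02). A Sec22b intron region 14088 bases after the start lay between 7.07 and 10.5. Besides the B2m one, 5 regions were called in a single list and are named after their values were seen: 1 at 953 bases before the start of Erap1 (19 in Cispl), 1 in the first part of Sec22b (5.09 in Cispl), 1 past Sec22b (3.1 in Oxali), and 2 in introns of Tapbp (9.53 in the combination, 11.3 under IFNγ). The Tapbp region of the combination was below the level of 14.7 that Ctrl would have needed for a call there, so that its absence from Ctrl says nothing of a difference.

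Several regions of the windows sat at starts of other genes, and those named here were at least 1.5-fold lower in the combination, as were 58.9% of all start-site regions. The Maml1 start past the end of Canx had levels of 169 in Ctrl and 71 in the combination, a ratio of 0.419 (0.387 to 0.453). The Ell3 start past Pdia3 had levels of 36.1 and 17.1, and the Rgl2 start past Tapbp 71.3 and 41.9. Against the start-site median the log2 ratios of the Maml1, Ell3 and Rgl2 starts differed by -0.51, -0.33 and -0.02. Levels of the further Tapbp regions at chr17:33920120-33920622 and chr17:33920687-33921055 were 86.5 and 58.2 in Ctrl and 47.8 and 30.5 in the combination.

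Cisplatin and oxaliplatin, which share the platinum centre and differ in the ligands around it, were compared at the same 2 μM and 48 h, directly between their lists. Of 41 member regions called in either list, 2 were at least 1.5-fold higher in Cispl (5.01% of all regions) and 1 at least 1.5-fold lower (8.82% of all regions). The higher regions were those downstream of B2m (4.26-fold) and in the Erap1 3′ UTR (1.85-fold, 1.33 to 2.61). The lower one, 2896 bases upstream of Sec22b, had levels of 6.76 in Cispl and 10.7 in Oxali, a ratio of 0.629 (0.475 to 0.832). Over the 9 start sites, 9 pairs with no test, the ratio of Cispl to Oxali ran from 0.772 at Calr (0.718 to 0.829) to 1.08 at B2m (0.97 to 1.2), and at H2-D1 it was 1.04 (0.933 to 1.15). The intervals at B2m and H2-D1 held 1, while all start sites had a median log2 ratio of -0.19 and Calr, Canx, Tapbp, Pdia3 and Sec22b lay below that median.

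When the combination was set against Oxali alone, B2m, H2-D1 and H2-K1 lay high among start sites and Calr, Canx, Pdia3 and Sec22b low. Of 38 member regions called in either list, 1 was at least 1.5-fold higher than in Oxali alone (3.16% of all regions) and 6 at least 1.5-fold lower (3.56% of all regions). At B2m the combination was 1.26 times the Oxali level (1.13 to 1.4), at percentile 97 of start-site regions, and at H2-D1 1.07 times (0.963 to 1.19), at percentile 90.4. At H2-K1 the ratio was 0.924 (0.826 to 1.03), at percentile 76.4, and at Tapbp 0.857 (0.777 to 0.944), at percentile 66.4, with overlapping intervals. At Calr (0.661), Canx (0.653) and Pdia3 (0.656) it lay between percentiles 17.8 and 19.4, but against start sites of their own class of Ctrl level these 3 genes differed by -0.04, -0.12 and -0.05 on the log2 scale. At Sec22b it was 0.534 (0.467 to 0.61), at percentile 2.9. The median over all start sites was -0.36 on the log2 scale, and Erap1 was at -0.36.

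The start sites of 24 other genes of the class I pathway were counted in the same way. Among 7 genes that supply peptides, 3 were at least 1.5-fold lower with Oxali, 3 with Cispl, 1 under IFNγ and 4 with the combination, where Tap1 and Psmb9 share 1 region that is counted under both. Of all start-site regions, 26%, 47.6%, 37.8% and 58.9% were lower in these 4 treatments. The shared start of the transporter gene Tap1 and the immunoproteasome gene Psmb9 had levels of 97.9 in Ctrl, 64.1 in Oxali, 55.9 in Cispl, 65.7 under IFNγ and 42.9 in the combination, and the proteasome activator Psme2 went from 178 in Ctrl to 71.4 in the combination. Among 7 editing and folding genes, 6 were lower in the combination, with the chaperone Hspa5 at 188 in Ctrl and 79.1 in the combination and the glucosidase subunit Ganab at 173 and 68.8; the tapasin relative Tapbpl, named after its values were seen, was higher, at 17.4 in Ctrl and 29.2 in the combination, as were 8.22% of all start-site regions. Among 5 regulators, 4 were lower in the combination, with Rfxank, a subunit of the factor that binds class I promoters, at 141 in Ctrl and 39.8. Of 5 other class I genes, 4 had a start-site region in both lists and only H2-T22 was lower in the combination, at 54.4 in Ctrl and 30.8. The transactivator Nlrc5, named after its values were seen, had start-site levels of 26.7 in Ctrl, 32.5 in Oxali, 31.2 in Cispl, 23 under IFNγ and 27.6 in the combination, all within 1.5-fold of Ctrl. Its window held 9 strong merged regions in Ctrl and 14, 16, 12 and 19 in these treated lists. Of these, 6 were gained with Oxali, 7 with Cispl, 4 under IFNγ and 11 with the combination, and the Ctrl regions lost numbered 1, 0, 1 and 1. Of all strong regions before merging, 32.5% were gained with Oxali, 37.3% with Cispl, 12.9% under IFNγ and 38.4% with the combination. Of all strong Ctrl regions, 9.11%, 5.9%, 15.8% and 7.59% were lost, in the same order.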

How the data were processed

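The 5 groups of 2 ATAC-seq libraries were processed by the authors, per the labels and the study's methods, with cutadapt, Bowtie2 2.2.8 (mm10), SAMtools and MACS2 2.1.0, after duplicate and mitochondrial reads were removed. The 2 libraries of a group were pooled before peak calling, so each deposited list stands for a group. The deposited columns used were the ratio of pileup to local background (a fold with 1 added to both) and the −log10 p-value and q-value. From these the whole-number pileup and the local background were recovered for 100% of peaks, and the lowest common background gave the depth scale. The steps were tested on simulated data. Several summits of an interval were 1 region; strong regions overlapping by 1 bp were merged. No deposited region ran past a chromosome end of GRCm38.p6 (21 compared). Named regions were the start-site regions, the 20 with the largest change (pileup of at least 50), and those gained or lost with 2 or more treatments (pileup of at least 30). Members and lists were chosen with earlier results of these data known. Counts per library, and so the study's own test, were not analysed here. Python 3.11.15, scipy 1.17.1, numba 0.67.0 and matplotlib 3.10.9 were used. Alternatives covered the window, the q-value, the scaling, the fold of a call, the summit used and the word length. Some markers and neighbouring genes are not reported here.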

Additional observations from a re-analysis of the deposited data

How the results depend on the processing

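No paired analysis was possible because each deposited list pools both libraries of its group, and for the same reason no library could be left out. Settings were compared by value only. Strong regions moved with a window of 20 kb, to 71 in Ctrl, 81 in Oxali, 88 in Cispl, 69 under IFNγ and 81 in the combination, and within the gene body alone Cispl had 26. Lost regions became 1 with Oxali and 0 with the combination at a q-value of at most 1e-05, and the Cispl one became 0 after merging or where the other list's level needed for a call was asked for, both settings chosen after the data were seen. The median log2 ratio of member regions (in the order Oxali, Cispl, IFNγ, the combination) was -0.02, 0.03, 0.09 and 0.06 scaled to start sites, the last a change of sign from a value past 1.5-fold. It was -0.16, -0.31, -0.24 and -0.25 by the deposited fold over the local background. Scaled to regions called in all 5 lists it was -0.54 with Oxali, -0.15 under IFNγ, -0.82 with the combination and 0.02 for Cispl against Oxali. With no scaling it was -0.50 with Oxali, -0.34 with Cispl and -0.74 under IFNγ, and averaged over summits -0.40 with Cispl. Outside start sites, a setting added after the data were seen, it was -0.08 with Oxali, -0.11 with Cispl and -0.13 with the combination. Past a fold of 2, regions higher were 1 with either platinum drug and with the combination, and regions lower were 0, 1, 0 and 6. Scaled to regions called in all 5 lists, 1 was higher with Oxali, IFNγ and the combination, and 16 were lower with Cispl and 2 under IFNγ. At single start sites, scaling to the start-site median changed the sign at 2 members with Oxali, 3 with Cispl, 4 under IFNγ and 4 with the combination, among them Erap1 in the combination, from -0.73 to 0.01. Averaging over summits changed the sign of H2-K1 under IFNγ to 0.41 and of Sec22b with Oxali to 0.58. By the deposited fold over the local background, the 9 start sites kept their sign in each treatment, and past 1.5-fold were B2m with Oxali (-0.65) and Sec22b under IFNγ (-0.84) and with the combination (-1.03). This fold can shrink a drop at a tall start site, as given for Calr, so it is no separate check on the others. With words of 50 bases, the recurring share was 12.3% in the H2-K1 window and 7.57% in that of H2-D1. The cause of these shifts was not tested. Depth and the cut of each list limit the faint regions most. A region at the genome background needed a pileup of 18 (IFNγ) to 27 (Cispl) for a call. The lowest deposited −log10 p-value was 2.99 in Cispl and 2.00 in each other list. Cispl calls thus met a stricter cut, and a faint region not called there could have passed the cut of the others.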
